A study of Homo sapiens with 2 samples.

Results

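Of 10 hypoxia response genes, 9 had a probe. They were chosen by name, as every probe whose annotation symbol is *HIF1A*, *EGLN1*, *EGLN3*, *VEGFA*, *ADM*, *BNIP3*, *BNIP3L*, *ANKRD37*, *NDRG1* or *CA9*, a rule that reads no measured value, although the names were proposed with earlier results of these data known. This gave 14 probes of 30113 that name 1 gene, and 9 genes of 20046. *CA9*, which encodes a carbonic anhydrase of the cell surface, had no probe under that symbol and was not analysed here. The measurements come from 2 Illumina bead arrays with 1 colour, 1 array for each of 2 biological replicates of 1 group. Both replicates are HUES8, a human embryonic stem cell line, grown in suspension, taken to stage 6 of the differentiation into stem-cell-derived beta (SC-beta) cells and sorted as Nkx6.1+/Ins+. All RNA thus comes from 1 line with 1 treatment and 1 stage. RNA was extracted by MARIS, a method for cells that were fixed, stained and sorted. The study's other cell types, adult islet cells among them, were not analysed here, so there is no test between groups and no p-value.

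Hypoxia-inducible factors (HIFs) are transcription factors of an oxygen-labile alpha subunit, such as HIF1A, and a stable beta subunit, ARNT. When oxygen is present, the prolyl hydroxylases EGLN1, EGLN2 and EGLN3 mark the alpha subunit for binding by VHL, which leads to its degradation, so that the pathway is switched at the protein more than at the mRNA. When oxygen is low, HIF binds a short core motif near its target genes, which serve glucose uptake, glycolysis, blood vessel growth, mitochondrial turnover and feedback on HIF itself. In the pancreatic islet, VEGFA made by beta cells maintains the dense capillary network. No array of cells at another oxygen level was analysed here, so the values below describe levels and do not show whether the response was active.

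The HIF core motif stood within the 250 bases before the annotated start of 6 of the 7 listed genes with a promoter sequence. The sequences are from RefSeq (GRCh38.p14) and are shown because they hold the letters of the motif that HIF is known to bind. The motif was searched as ACGTG or GCGTG on both strands, in windows from 250 bases before to 50 bases after a start, and both letters of its first position are used by HIF. Each stretch is written 5′ to 3′ on the gene's strand, with capitals for a match, so that CACGT and CACGC are matches on the other strand and CACGTG is 1 site that matches on both.
BNIP3, chr10:131982015-131982074, minus strand, from 151 to 92 bases before the start: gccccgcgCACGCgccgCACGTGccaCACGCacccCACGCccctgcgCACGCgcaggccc
ANKRD37, chr4:185396676-185396705, plus strand, from 165 to 136 bases before the start: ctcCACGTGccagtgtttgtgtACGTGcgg
ADM, chr11:10304959-10304988, plus strand, from 114 to 85 bases before the start: agagcaggagcgcGCGTGgctgaggaaaga
HIF1A, chr14:61695296-61695325, plus strand, from 217 to 188 bases before the start: ttggctgagagcgGCGTGggctggggtggg
EGLN1, chr1:231422288-231422317, minus strand, from 30 to 1 bases before the start: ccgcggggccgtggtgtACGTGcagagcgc
CA9, chr9:35673897-35673926, plus strand, from 31 to 2 bases before the start: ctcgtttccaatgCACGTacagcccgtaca

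*BNIP3* held 5 sites in these 60 bases and *ANKRD37* held 2 in 30, and both have the palindrome CACGTG. *ADM*, *HIF1A*, *EGLN1* and *CA9* held 1 site each. No match to these letters lay in the *EGLN3* window or in the window of a second *HIF1A* start. *VEGFA*, *BNIP3L* and *NDRG1* had no entry in the table used. By window, 6 of 8 held a match, against 48.4% of 35116 windows of all genes. Windows of genes above background on the arrays held one in 60.8% of 11288 cases. The windows of the listed genes had a median GC content of 67.3%, against 58.7% for all windows, and the part of base composition in the matches was not tested. ACGTG alone was in 4 of 8 windows (21.4% of all windows) and GCGTG alone in 3 of 8 (36.5%). A match is a description of the letters and not evidence of binding.

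**Figure D1:**
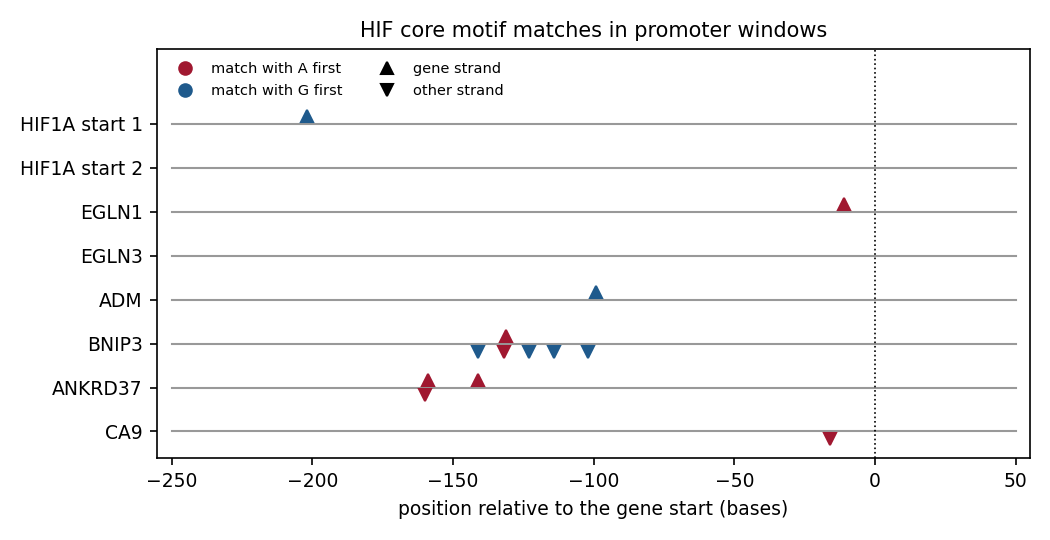
Matches to the HIF core motif along the promoter windows of the listed genes, by position from the gene start in bases (x axis); triangles pointing up are on the gene's strand and down on the other, red with A and blue with G as the first base. The 5 *BNIP3* sites lie between 143 and 100 bases before the start, and the *EGLN3* and second *HIF1A* windows hold none.

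The cells carried the RNA of insulin-producing endocrine cells, with *NKX6-1* as the exception on replicate 2, and RNA of other islet hormones too. Of 9 measured beta-cell and endocrine markers, 8 were above background on both arrays. On replicate 2 alone 8 were (54.8% of all genes), and on replicate 1 alone 9 (51.8%). *NEUROD1* of this list was not measured. *INS* had an intensity of 16501 on each array. Of the other hormones, *GCG* had 6346 on replicate 2 and 4606 on replicate 1, and *SST* had 3028 and 1924. *IAPP*, the hormone stored with insulin, differed 7.71-fold, with 2107 on replicate 2 and 273 on replicate 1. The 1 probe of *NKX6-1*, which encodes a protein of the sort, read -4.24 on replicate 2 and 78.9 on replicate 1, so replicate 2 was below background for a gene that its label names. For this reason counts above background are also given for each array alone. The background floor of an array was the 95th percentile of its 457 olfactory receptor probes, 15.9 on replicate 2 and 18.01 on replicate 1. By this rule 46.9% of named genes and 38.1% of named probes were above background on both arrays. Because probes differ in how well they bind, levels are compared between arrays and not between genes. In sorted bulk RNA, fewer cells that express a gene and less of its RNA per cell cannot be told apart.

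Most of the hypoxia response genes were expressed at a measurable level. Of the 9 measured, 7 were above background on both arrays, and of their 14 probes 9 were, against the 46.9% of genes and 38.1% of probes for the whole array. *HIF1A*, *VEGFA*, *ADM*, *BNIP3*, *BNIP3L*, *ANKRD37* and *NDRG1* were the 7. *EGLN1* and *EGLN3*, the oxygen sensors, were above background on replicate 2 only. On replicate 2 alone the count was thus 9 of 9 (54.8% of all genes), and on replicate 1 alone 7 of 9 (51.8% of all genes).

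**Figure D2:**
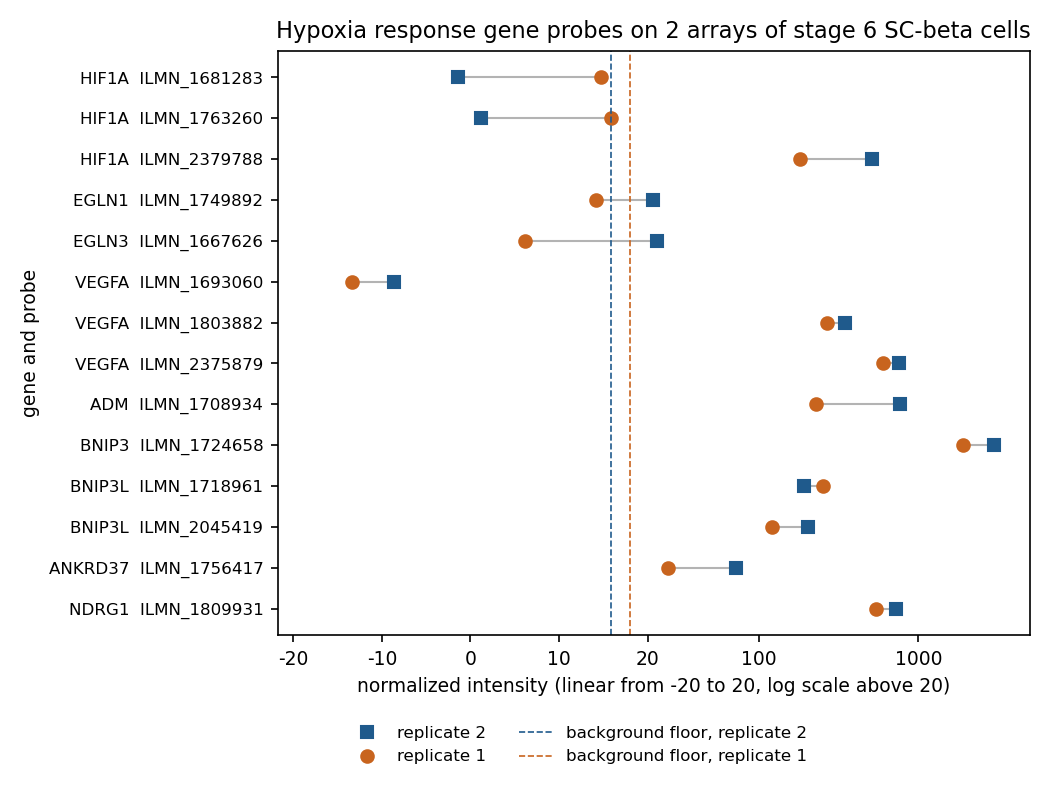
Normalized intensity (x axis, linear up to 20 and logarithmic above) of the 14 probes of the 9 measured genes, with replicate 2 as squares and replicate 1 as circles; the dashed lines are the background floors at 15.9 and 18.01. The 9 probes to the right of both floors on both arrays belong to 7 genes, and *EGLN1* and *EGLN3* straddle the floors.

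*HIF1A*, the oxygen-regulated alpha subunit, was seen by 1 of its 3 probes. That probe (ILMN_2379788) had 512 on replicate 2 and 181 on replicate 1, a mean of 346 ± 234 (SD, n = 2). The arrays differed 2.83-fold there, or 1.50 on the log2 scale. The others were dark: ILMN_1681283 had -1.40 and 14.8 on replicates 2 and 1, and ILMN_1763260 had 1.24 and 15.9, none of these above background. The probe that saw the gene is annotated to another transcript than the pair that did not. The *HIF1A* level and its difference therefore rest on 1 probe, and the direction at the dark probes has no meaning below the floor.

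The other alpha and beta subunits were also expressed, 4 of 4 on both arrays, against 46.9% of all genes. The count was the same on replicate 2 alone (54.8%) and on replicate 1 alone (51.8%). At a 99th-percentile floor it was 3 on both arrays (40.6% of all genes). None of the 4 was higher in replicate 2, against 60.9% of all genes. *EPAS1*, which encodes the alpha subunit HIF-2 alpha, had 77.7 on replicate 2 and 189 on replicate 1, a log2 difference of -1.28. *ARNT2*, a beta subunit best known in neural cells, had 214 and 433, a difference of -1.02. *ARNT*, the common beta subunit, had 40.4 and 44.5, and its arrays lay close together. *HIF3A*, another alpha subunit, had 22.5 and 24.1 at 1 of 6 probes, just over the floor. The *HIF1A* probe thus differed upward and *EPAS1* downward between the same arrays, each at a single probe.

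The prolyl hydroxylases *EGLN1* and *EGLN3* lay at the floor. *EGLN1*, the main oxygen sensor for HIF1A, had 21.6 on replicate 2 and 14.2 on replicate 1. *EGLN3*, a hydroxylase that HIF itself induces, had 23.1 and 6.19. Against the floor of replicate 1 these are at least 1.20-fold and at least 1.28-fold higher in replicate 2, bounds too small to set the arrays apart. *EGLN2*, a hydroxylase that hypoxia is not known to induce, was well above background with 690 and 1097, although its probes differed in direction (-0.67 and 0.15 on the log2 scale).

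The rest of the degradation and cofactor machinery was mostly above background, 9 of 10 genes with *EGLN2* on both arrays, against 46.9% of all genes. On replicate 2 alone 9 were (54.8%), and on replicate 1 alone 10 (51.8%). *VHL*, the substrate receptor of the ligase that removes HIF alpha, had 533 on replicate 2 and 411 on replicate 1. Its ligase partners *ELOB* (1924 and 1795), *RBX1* (1506 and 1461) and *CUL2* (207 and 204) had nearly equal values on both arrays at their brightest probe, although the second *ELOB* probe had a log2 difference of 1.16. *ELOC* had 612 and 376, but its second probe ran the other way (0.70 and -0.67 on the log2 scale). *HIF1AN*, the asparaginyl hydroxylase that blocks HIF's binding of coactivators, had 143 and 79.7. *CITED2*, which competes with HIF for those coactivators and is itself a HIF target, had 146 and 47.8 and was the only gene of this list above background on both arrays that differed by 2-fold or more at its brightest probe (3.05-fold). Of the coactivators, *CREBBP* had 156 and 117, whereas *EP300* had 1.46 and 75.1, passed the floor of replicate 1 alone and was at least 4.73-fold lower in replicate 2.

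*VEGFA*, the vascular growth factor, was expressed at similar levels on both arrays. Its brightest probe (ILMN_2375879) had 753 on replicate 2 and 601 on replicate 1 (677 ± 108, SD, n = 2). A second (ILMN_1803882) had 346 and 268 (307 ± 55.2). The log2 differences at these probes were 0.33 and 0.37, a spread of 0.04, while the median spread over the 1844 genes with 2 or more probes above background was 0.66. The remaining probe (ILMN_1693060) had -8.65 and -13.4 and was not above background. Each of the 3 probes is annotated to a different transcript. So 2 of 3 probes saw the gene, and those gave the same small difference.

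*ADM* encodes adrenomedullin, a secreted vasodilator peptide, and had the largest difference between the arrays of the 7 genes above background on both. Its single probe (ILMN_1708934) had 772 on replicate 2 and 227 on replicate 1, a mean of 499 ± 385 (SD, n = 2). This is a 3.40-fold difference, 1.77 on the log2 scale. Of the 9393 named genes above background, 97.9% had a lower difference.

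The receptors for both secreted factors were largely dark in the sorted cells. *FLT1* and *KDR*, the VEGF receptors of endothelium, and the coreceptor *NRP2* were not above background on either array. The coreceptor *NRP1* was so on replicate 2 only (49.7 and 17.3). *CALCRL*, the receptor of adrenomedullin, had -9.17 and -11.6, and its modulator *RAMP3* was also dark. The modulators *RAMP1* (109 and 103) and *RAMP2* (46.3 and 36.3) were above background. Endothelial markers as a whole stood at 1 of 8 above background on both arrays, *CLDN5* (23.1 and 99.5), against 46.9% of all genes. On replicate 2 alone there were 2 (54.8% of all genes) and on replicate 1 alone 1 (51.8%), and *CDH5* and *VWF* were below 0 on both arrays.

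*BNIP3* and *BNIP3L* encode related proteins of the outer mitochondrial membrane that bind LC3-family proteins and mark mitochondria for autophagy. *BNIP3* had 2973 on replicate 2 and 1893 on replicate 1 at its single probe (ILMN_1724658), a mean of 2433 ± 764 (SD, n = 2) and a 1.57-fold difference. The RefSeq gene table lists 46 *BNIP3* pseudogenes, and whether the probe separates them from the gene was not tested. *BNIP3L* was above background at both of its probes, which disagreed. ILMN_1718961 had 191 and 251 on replicates 2 and 1 (221 ± 42.6), a log2 difference of -0.40. ILMN_2045419 had 203 and 121 (162 ± 58.1), a difference of 0.75. The probes lie 1.14 apart on the log2 scale, wider than the median spread of 0.66, so no direction can be given for *BNIP3L*.

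Of the listed binding partners of these mitochondrial receptors, all but *BCL2* had RNA above background on both arrays. All 4 LC3-family genes on the list were above background: *MAP1LC3B* had 486 on replicate 2 and 283 on replicate 1, *GABARAPL2* 1678 and 1493, *GABARAPL1* 543 and 541, and *GABARAP* 168 and 174. *BCL2L1*, a survival protein that binds BNIP3, had 732 and 1205, while its relative *BCL2* was above background on replicate 2 only (20.8 and 1.19). *RHEB*, a small GTPase, had 1054 and 911. Of the 15 receptor and partner genes, 8 were above background on both arrays, against 46.9% of all genes. On replicate 2 alone 10 were (54.8%), and on replicate 1 alone 8 (51.8%). None of the 8 above background on both arrays differed by 2-fold at its brightest probe, against 13.5% of all genes higher by as much and 10.9% lower.

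*ANKRD37* and *NDRG1* close the set. *ANKRD37*, which encodes an ankyrin-repeat protein and is a HIF-1 target, was dim, with 71.7 on replicate 2 and 26.8 on replicate 1 (49.3 ± 31.8, SD, n = 2). The difference was 2.67-fold, or 1.42 on the log2 scale. This call depends on how low values are treated: with an offset of 50 added before the log2 step the difference was 0.66, and at a 99th-percentile floor the gene was no longer above background. *NDRG1*, a gene induced by hypoxia, metals and differentiation, had 725 and 544 (634 ± 128), a difference of 0.41 on the log2 scale.

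Between the replicates, most of these genes were brighter in replicate 2. Of the 7 above background, 6 were higher there by any amount at the brightest probe, against 60.9% of all 9393 named genes above background. The other is *BNIP3L*, whose probes disagree, and the count was 7 of 7 when each gene took the median over its probes, against 59.6% of all genes. By 2-fold or more, 3 were higher in replicate 2 (*HIF1A*, *ADM* and *ANKRD37*), against 13.5% of all genes, and 0 were lower, against 10.9%. Their median log2 difference was 0.65, with a range from -0.40 to 1.77, and that of all genes was 0.21 with an SD of 0.92. The 7 passed the floor on both arrays, so *EGLN1* and *EGLN3* are not in these counts. With these at their lower bounds the median over 9 genes was 0.41, and that over all 11917 genes treated alike was 0.18. With 1 array per replicate, no difference has a replicate check of its own.

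**Figure D3:**
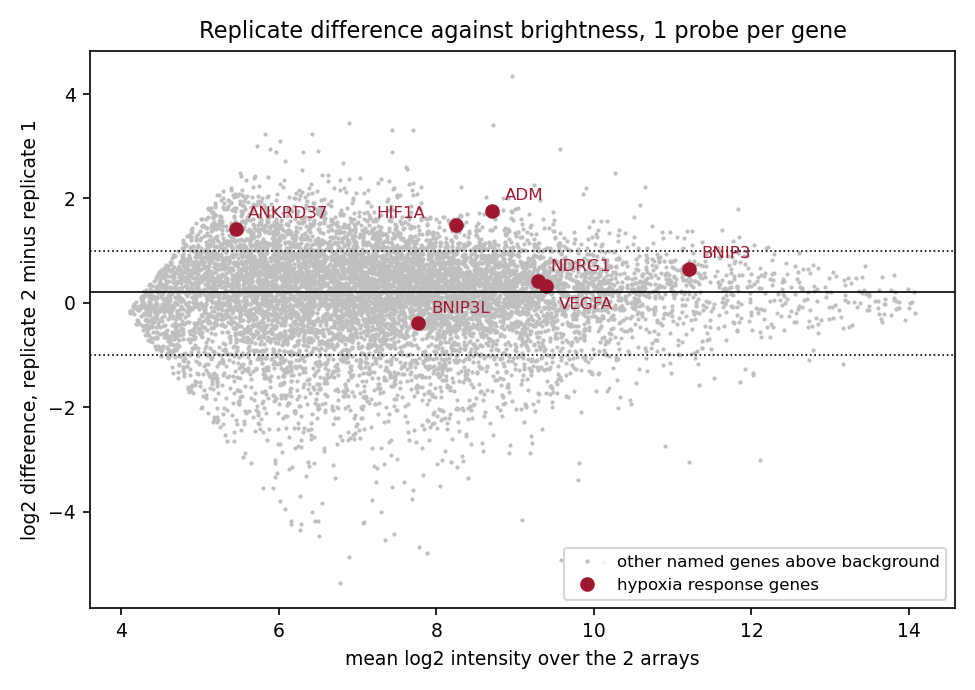
Log2 difference between the arrays (y axis, replicate 2 minus replicate 1) against mean log2 intensity (x axis) for 9393 named genes above background, 1 probe each; hypoxia response genes are red, the solid line is the median of all genes (0.21) and the dotted lines mark 2-fold. *ADM*, *HIF1A* and *ANKRD37* lie above the upper dotted line, and the other 4 lie between the lines.

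Genes differed least between the arrays where they were brightest. When the 9393 genes were split into 4 equal groups by brightness, the brightest held *BNIP3*, *NDRG1*, *VEGFA* and *ADM*, and in it 16.2% of 2348 genes differed by 2-fold or more, with an SD of the log2 difference of 0.76. In the next group, with *HIF1A* and *BNIP3L*, the share was 24.5% and the SD 0.93, in the one below it, with none of the 7, 29.6% and 1.04, and in the dimmest, with *ANKRD37*, 27.5% and 0.92. The *ADM* difference of 1.77 exceeds 2 SDs of its group, which spans mean intensities from 378 to 17354, but not 2 SDs of the next group. Those of *HIF1A* (1.50) and *ANKRD37* (1.42) lie within 2 SDs of theirs. These SDs are spreads over genes, so they do not set *ADM* apart from the other 2.

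HIF targets in glucose uptake and glycolysis were above background on both arrays in 20 of 21 cases, against 46.9% of all genes. The count was the same on replicate 2 alone (54.8%) and on replicate 1 alone (51.8%). These targets went both ways between the arrays. By 2-fold or more, 5 of the 20 were higher in replicate 2 and 3 lower, against 13.5% and 10.9% of all genes, and the list's median log2 difference was 0.51, against 0.21 for all genes. The glucose transporter *SLC2A1* had 401 on replicate 2 and 191 on replicate 1 (1.07 on the log2 scale), and *PDK3*, a kinase that restrains pyruvate dehydrogenase, had 608 and 271 (1.17). The other 3 that were higher had a second probe with no such difference: *PFKFB3*, which makes the activator of phosphofructokinase, had 1.41 and -0.05, hexokinase *HK1* 1.24 and -0.16, and pyruvate kinase *PKM* 1.02 and -1.20. The 3 that were lower were *PGAM1* (-1.36), *PGK1* (-1.27, with 0.18 at its other probe) and *PFKL* (-1.11). *LDHA*, lactate dehydrogenase, had 1251 and 765, with both probes higher in replicate 2 (0.71 and 1.26), and *PDK1* was not above background on either array.

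Of the other HIF targets, 18 of 25 were above background on both arrays, against 46.9% of all genes. On replicate 2 alone 19 were (54.8%), and on replicate 1 alone 18 (51.8%). The median log2 difference of the 18 above background on both arrays was 0.51, against 0.21 for all genes. By 2-fold or more, 2 of these 18 were higher in replicate 2 and 1 lower, against 13.5% and 10.9% of all genes. *INSIG2*, a regulator of sterol synthesis, had 258 on replicate 2 and 103 on replicate 1 (1.32 on the log2 scale), and the collagen prolyl hydroxylase *P4HA1* had 253 and 121 (1.07). *ANKZF1* was the gene that was lower by as much (118 and 250, -1.08). The feedback genes *KDM3A* (313 and 161) and *BHLHE40* (197 and 112) and the stress gene *DDIT4* (156 and 130) differed by less than 2-fold. Of the 7 targets not above background on both arrays, *EDN1*, which encodes the vasoconstrictor endothelin, passed the floor of replicate 2 alone (27.7 and 12.3). *EPO*, which encodes the hormone erythropoietin, *LOX*, an enzyme of the matrix, *HMOX1*, *TF*, *MXI1* and *COX4I2* were not above background on either array.

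**Figure D4:**
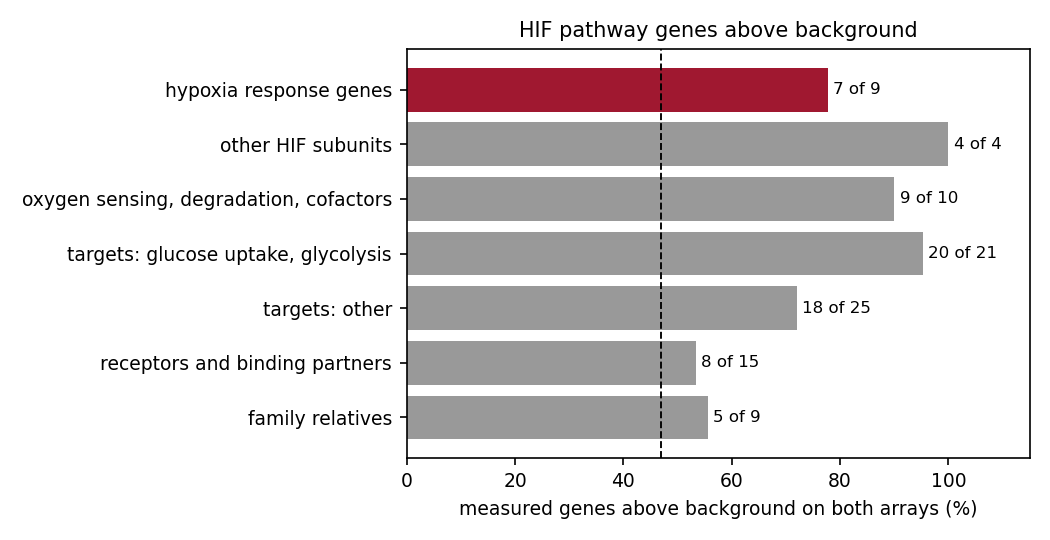
Share of measured genes above background on both arrays (x axis, %) in the hypoxia response genes and 6 other lists of the pathway, with counts beside the bars; the dashed line is the 46.9% of all named genes. The lists of HIF subunits (4 of 4), degradation machinery (9 of 10) and glycolysis (20 of 21) have the longest bars, and those of receptors (8 of 15) and relatives (5 of 9) lie nearest the line.

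Relatives of the listed genes were less uniform. Both arrays showed 5 of the 9 measured above background (46.9% of all genes), and each alone 6 (54.8% on replicate 2 and 51.8% on replicate 1). *VEGFB* had 1496 on replicate 2 and 1410 on replicate 1, with a log2 difference of 0.09 there and 1.20 at its second probe. *PGF*, placental growth factor, had 197 and 119, while *VEGFC* and *VEGFD* were not above background on either array. Of the carbonic anhydrases measured in place of *CA9*, the cytosolic *CA2* had 371 and 81.7, a 4.55-fold difference that its second probe shared (2.18 and 2.79 on the log2 scale), and the cell-surface enzyme *CA12*, also a HIF target, passed the floor of replicate 2 alone, with 18.6 there. *NDRG4* had 637 and 781, and its probes were opposed (-0.29 and 1.06). *NDRG3* had 747 and 246, with probes also opposed (1.61 and -2.57), and *NDRG2* was above background on replicate 1 only. Over all 84 measured genes of the 6 other lists, 64 were above background on both arrays, against 46.9% of all genes. Replicate 2 alone gave 68 (54.8%) and replicate 1 alone 66 (51.8%). Of the 64, 44 were higher in replicate 2 by any amount (60.9% of all genes), 10 by 2-fold or more (13.5% of all genes), and 6 were lower by 2-fold or more (10.9% of all genes). Their median log2 difference was 0.33, against 0.21 for all genes.

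**Figure D5:**
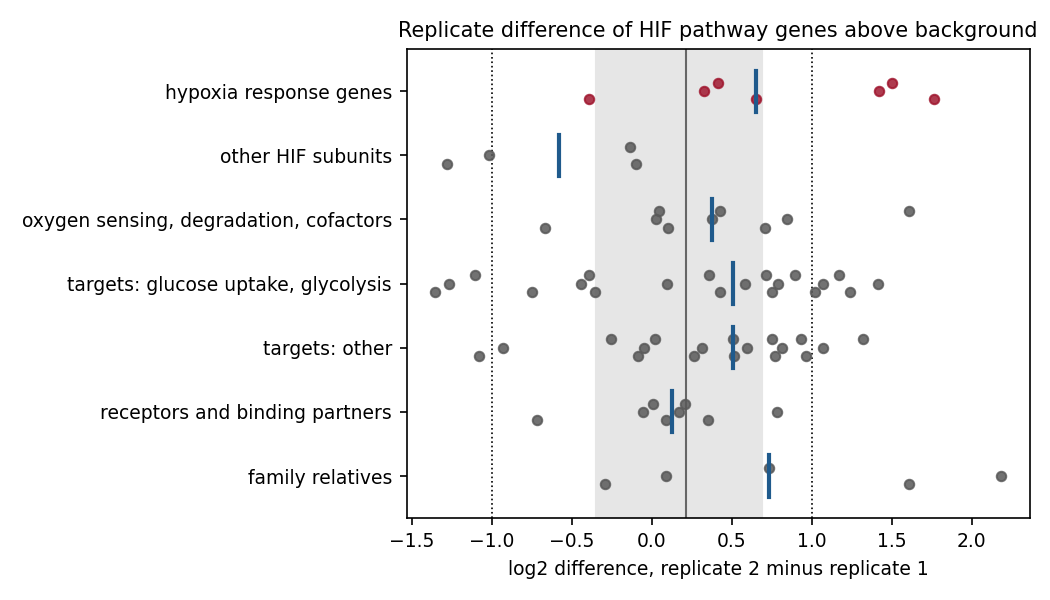
Log2 difference between the arrays (x axis, replicate 2 minus replicate 1) of each pathway gene above background, 1 point per gene at its brightest probe; blue bars are list medians, the grey band is the middle 50% of all named genes with its median line at 0.21, and dotted lines mark 2-fold. The hypoxia response genes range from -0.40 to 1.77, and the 4 other HIF subunits all lie below 0.

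Markers of other cells also differed between the arrays. The shares of all genes above background were 54.8% on replicate 2 and 51.8% on replicate 1, for comparison with each list here. Mesenchymal genes were above background in 7 of 8 cases on replicate 2 and 4 of 8 on replicate 1. *COL3A1* (76.6 and 12.3), *THY1* (44.7 and -2.94) and *PDGFRB* (17.8 and 14.2) passed on replicate 2 only, and no gene of this list passed on replicate 1 only. The *PDGFRB* value of 17.8 lies under the floor of replicate 1, 18.01. Summed intensities were 520 and 421, and *LUM* was below 0 on both. Immune genes were above background in 3 and 2 of 6 cases, with sums of 523 and 987, of which *CD68*, a lysosomal protein gene, made 480 and 962, and *CD3E* and *CD14* were below 0 on both. Duct and acinar genes had 3 of 6 on each array, with sums of 1203 and 1083, of which *KRT19* made 926 and 1022. *KRT19* was thus lower in replicate 2, whereas *CFTR*, a chloride channel of ducts, had 216 and 29.3. Here too the 3 were not the same, with *SPP1* (49.7 and 4.63) on replicate 2 only and *CPA1* (-4.57 and 22.2) on replicate 1 only. Pluripotency genes had 3 of 6 on each, with sums of 186 and 147, but not the same 3. *SOX2* (74.9 and -7.54) passed on replicate 2 only and *POU5F1* (10.7 and 18.4) on replicate 1 only. The other islet hormones *GCG*, *SST* and *GHRL* were above background on both arrays, with sums of 9463 and 6613. Endothelial sums were 61.0 and 127. Sums count a value below 0 as 0, and the part of these cells in the differences of the hypoxia response genes was not tested.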

How the data were processed

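The authors deposited a normalized intensity, not log-transformed, for each of 47323 probes on each array. GenomeStudio is named in the submitters' processing notes, with no version or genome build given in the sources used here, and per the series design text the arrays were normalized together with published ones. The values reach -22.6, and the sorted values of both arrays differ by at most 0.155, as background subtraction and quantile normalization leave them. GEO's platform annotation gave 1 gene for 30113 probes and several for 8, which stay unnamed, as do 17202 that it does not list. The symbol was looked up in RefSeq through the Entrez identifier for 30074 probes, whether or not it changed, and 39 kept the annotated symbol. Values under the floor were set to it before log2, and each gene takes its brightest probe among those above background on both arrays. A fold of 2 marks a difference. Where 1 array was below its floor, the fold is a bound against that floor.

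With 1 group of 2 arrays there is no test, and their number limits the precision. The genes and lists were chosen with earlier results of these data known. Every probe of the hypoxia response genes and any gene of the fixed lists could be named, and no gene was picked as most alike in pattern, since 2 arrays give none. Alternatives were the floor, each array alone, the probe, the offset, quantile normalization, median centring, a lowess brightness trend (fraction 0.3), symbols as annotated and each motif alone. Quantile normalization could change almost nothing, because the sorted values of the arrays already differed by at most 0.155, so it is no check of the results. Python 3.11.15, pandas 2.3.3 and statsmodels 0.14.6 were used.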

Additional observations from a re-analysis of the deposited data

How the results depend on the processing

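No paired analysis was possible because there is 1 group. The count of hypoxia response genes above background was 6 at the 99th-percentile floor (40.6% of all genes) and 8 at the 90th (50.9%). It was 7 with keratin-associated protein and taste receptor probes (47.2%) or with symbols not updated (46.9%). On 1 array alone it ranged from 7 (51.8%) to 9 (54.8%), with 9 to 11 probes and 66 to 68 other pathway genes. The count that differed 2-fold or more was 2 with an offset of 50 (11.1% of all genes) and at the 99th-percentile floor (22.4%), without *ANKRD37* in both. It was 3 otherwise, where the share of all genes was 22.1% to 26.0%. The median log2 difference ranged from 0.41, with bounds included (chosen after seeing the data), to 0.65. Median centring lowered every difference by 0.15 and gave 0.50 for these genes and 0.06 for all genes, of which 900 were then 2-fold higher in replicate 2 and 1239 lower, against 1272 and 1026 before. *BNIP3L* turned to 0.18 with the median of its probes, an alternative that, chosen for the count after seeing the data, put 7 of 7 genes higher in replicate 2 in place of 6. With GCGTG alone 3 of 8 windows held a match (36.5% of all windows), and with ACGTG alone 4 (21.4%). Probes near the floor, here *EGLN1*, *EGLN3* and *ANKRD37*, are the least certain.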
